A study of Mus musculus with 6 samples.

Results

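Rnh1 encodes the ribonuclease inhibitor, and Ang and Rnase4 encode angiogenin and ribonuclease 4, which belong to the enzyme family that this inhibitor binds. These 3 genes, out of 38087 gene IDs in the count files, were taken by name through their GENCODE M21 symbols, with Rnh1 as the main gene. They were chosen by their log2 fold change between the groups compared here, so their own levels and fold changes are a description and carry no p-value. RNA was measured in the mouse cell line HL-1, which derives from atrial cardiomyocytes, in 2 groups of 3 libraries. The Circ-INSR siRNA group received 100 nM of an siRNA targeting the circular RNA Circ-INSR, which is made from the insulin receptor gene. The control group received a scrambled siRNA, whose dose is not given in the sources used here. Every library came from the same cell line and from poly(A)-selected RNA.

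Ribonuclease inhibitor is a cytosolic protein built from leucine-rich repeats that fold into a horseshoe, and it grips pancreatic-type ribonucleases so tightly that they can no longer cut RNA. It is regarded as the safeguard of cellular RNA against secreted ribonucleases that leak into the cytosol. Angiogenin is a secreted ribonuclease known for inducing the growth of blood vessels, for promoting rRNA synthesis in the nucleus and for cutting tRNA at the anticodon loop in stressed cells. Ribonuclease 4 is a secreted relative that prefers to cut after uridine.

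Rnh1 lies on mm10 chromosome 7, 141160326 to 141172857, on the minus strand (ENSMUSG00000038650), with 5 annotated transcripts and 2594 exonic bases. The repeats of the protein are visible in its gene model. In the annotated transcript of 10 exons and 1656 bases, exons 3 to 9 each hold exactly 171 bases, or 57 codons, and together make up 72.3% of the transcript. The 21 pairs of these 7 exons were identical at 45% to 59.1% of positions when laid side by side without gaps, with a median of 50.9%. At 51 of the 171 positions at least 6 of the 7 exons held the same base, and at 28 positions all of them did. Exons 3 and 7 are shown because they were the most alike, and exon 8 because it was among the least like exon 7. Capitals mark the base shared by at least 6 of the 7 exons. The sequences are from the GENCODE M21 transcript on GRCm38, 5′ to 3′ on the minus strand of chromosome 7.
Exon 3, chr7:141164504-141164674: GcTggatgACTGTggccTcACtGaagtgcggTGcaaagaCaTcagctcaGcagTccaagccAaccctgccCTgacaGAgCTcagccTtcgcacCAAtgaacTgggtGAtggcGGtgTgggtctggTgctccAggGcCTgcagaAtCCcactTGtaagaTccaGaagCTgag
Exon 7, chr7:141162852-141163022: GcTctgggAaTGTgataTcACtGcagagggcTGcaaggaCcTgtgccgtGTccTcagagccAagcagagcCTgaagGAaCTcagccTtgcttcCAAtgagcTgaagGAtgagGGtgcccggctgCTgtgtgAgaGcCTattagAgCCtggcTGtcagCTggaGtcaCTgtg
Exon 8, chr7:141162424-141162594: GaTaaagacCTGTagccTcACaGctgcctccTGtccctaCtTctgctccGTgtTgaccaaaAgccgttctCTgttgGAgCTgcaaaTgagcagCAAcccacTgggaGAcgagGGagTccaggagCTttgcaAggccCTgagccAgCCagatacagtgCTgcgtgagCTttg
The exons thus share a spaced pattern of bases rather than long identical stretches, and of the 2555 different words of 50 bases in Rnh1 transcripts, 0 occurred in the transcripts of another gene. No exon of another annotated gene overlapped those of Rnh1.

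Ang (ENSMUSG00000072115, chromosome 14, 51091150 to 51102009, plus strand) and Rnase4 (ENSMUSG00000021876, 51091077 to 51106151, plus strand) lie on the same stretch, Ang within the span of Rnase4. Their first exons overlap in part, and in each gene a separate exon that carries the coding sequence follows. Of 1202 exonic bases of Ang 219 were shared with Rnase4, or 18.2%, and these made up 13.4% of the 1637 exonic bases of Rnase4. How reads on the shared bases were assigned is not given in the sources used here, so the counts of this pair are less certain than those of Rnh1. Of the words of 50 bases in Ang transcripts 14.5% occurred in transcripts of Rnase4 or Ang2.

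All 3 genes were found in the promoter table. The stretches upstream of the starts are shown because Rnh1 stands apart from the other genes while Ang and Rnase4 have a start in common. They are the 250 bases before the outermost RefSeq start of Rnh1 and before the start that RefSeq gives to both Ang and Rnase4 (GRCm38.p6), 5′ to 3′ on the gene's strand, with capitals for matches to the motifs searched.
Rnh1, minus strand, chr7:141172852-141173101: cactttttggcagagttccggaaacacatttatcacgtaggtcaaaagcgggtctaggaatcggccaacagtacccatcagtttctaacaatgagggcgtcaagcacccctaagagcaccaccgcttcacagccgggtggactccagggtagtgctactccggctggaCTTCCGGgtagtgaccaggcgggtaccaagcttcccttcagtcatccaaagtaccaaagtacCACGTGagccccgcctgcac
Ang and Rnase4, plus strand, chr14:51090827-51091076: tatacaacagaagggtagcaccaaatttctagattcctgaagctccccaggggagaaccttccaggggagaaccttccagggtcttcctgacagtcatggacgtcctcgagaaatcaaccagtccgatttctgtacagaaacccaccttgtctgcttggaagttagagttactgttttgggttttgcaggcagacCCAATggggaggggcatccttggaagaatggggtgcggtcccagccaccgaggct
In the Rnh1 window an E-box (CACGTG) began 20 bases before the start and an ETS site (CCGGAAG, on the opposite strand) 82 bases before it. In the window of Ang and Rnase4 a CCAAT box began 55 bases before the start. Of 32841 RefSeq windows of this length 6.02% held the E-box, 6.91% the ETS site and 33.9% the CCAAT box on either strand. The other motifs searched on both strands were the GC box (GGGCGG, in 32.7% of windows), the AP-1 site (TGACTCA, 4.46%), the cAMP response element (TGACGTCA, 1.55%), the TATA box (TATAAA, 12.4%) and the GATA site (AGATAA, 9.99%), none of which matched in these windows. The matches shown did not overlap each other. The middle of 3 RefSeq starts of Rnh1 had a TATA box match 188 bases before it. The innermost had an AP-1 match 179 bases before it and 3 GC box matches. Both of these windows lie within the first exon of another Rnh1 transcript. All motif matches given here are matches of letters only.

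Total counts per library lay between 60024750 and 62523602 in control while Circ-INSR siRNA libraries had 68468620 to 77037474. Levels are given in CPM, a gene's counts over the total of its library after that total was adjusted by edgeR's TMM factor. Insr, the host gene of the circular RNA, had 129.0, 127.6 and 103.8 CPM in control and 89.2, 89.2 and 89.2 CPM in Circ-INSR siRNA libraries. Insr was called lower, with a log2 fold change of -0.43 (SE 0.07; edgeR adjusted p = 0.000393). The RNA was poly(A)-selected and these gene counts do not separate linear from circular RNA, so the depletion of Circ-INSR was not measured here. The third control library was the least like its group: the chi-square statistic divided by the number of genes was 31.3 and 21.8 for its pairs with control replicates 1 and 2, which gave 6.99 with each other. All 12 cardiomyocyte markers were detected. They summed to 7188 to 7474 CPM in control and 8035 to 8173 CPM in Circ-INSR siRNA libraries. The markers went both ways: edgeR called 7 higher, 2 lower and 3 in neither direction, against 28.5% of all genes tested in each direction. The 2 lower were Tnnt2, from 2021 to 1216 CPM, and Myl7, from 1419 to 1241 CPM (edgeR adjusted p = 2.72e-08 and 0.00172). Of the atrial markers, the myosin light chain genes Myl7 and Myl4 were abundant, at 1419 ± 66.6 and 297.9 ± 14.8 CPM in control (SD, n = 3), while Nppa and Sln were at 16.6 ± 0.357 and 0.908 ± 0.115 CPM. Of 6 leukocyte and macrophage markers 2 passed the filter on low counts, the defining gene Ptprc had 6 counts in control and 4 in Circ-INSR siRNA libraries in all, and Adgre1 was at 0. Their summed level was 6.69 to 7.54 CPM in control and 3.78 to 4.29 CPM after Circ-INSR siRNA. Of 6 fibroblast markers 3 passed, with 159.2 to 178.5 CPM in control and 112.7 to 126.6 CPM after Circ-INSR siRNA, nearly all of it Col1a1, which fell (log2 fold change -0.50, SE 0.06; edgeR adjusted p = 1.82e-05). At far lower levels Col1a2 rose from 0.313 ± 0.152 to 0.995 ± 0.0188 CPM (edgeR adjusted p = 0.000522) and Pdgfra was not called, and the median over the 3 was 0.64. Of 6 endothelial markers 3 passed, Emcn was at 0 and Cdh5 had 4 counts per group. The endothelial sum was 27.2 to 30.7 CPM in control and 82.6 to 86.4 CPM after Circ-INSR siRNA, mostly from Kdr and Tek. In bulk RNA fewer cells of a type and less RNA per cell cannot be told apart, and the part of these shifts in the results was not tested. The labels do not say whether libraries came from separate cultures, so the spread behind every p-value may be only technical.

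Rnh1 had 265.2, 254.9 and 267.7 CPM in the control libraries and 45.1, 46.5 and 51.3 CPM in the Circ-INSR siRNA libraries. The groups were far apart, and within each group the highest library was close to the lowest. The means were 262.6 ± 6.78 and 47.6 ± 3.24 CPM (SD, n = 3 each), so that 18.1% of the control level was left, a 5.51-fold difference. These levels rest on 16047 to 16809 raw counts per control library and on 3034 to 3685 per Circ-INSR siRNA library. The fit of all genes gave Rnh1 a log2 fold change of -2.46 (SE 0.06), and 59 of the 16666 genes tested had a lower one. Per kilobase of exon Rnh1 held 101.2 ± 2.61 CPM in control and 18.4 ± 1.25 CPM after Circ-INSR siRNA. On that scale Rnh1 ranked 444 to 462 from the top among all genes tested in control libraries and 3186 to 3560 in Circ-INSR siRNA libraries. The inhibitor gene thus moved from among the abundant mRNAs of these cells to a moderate level.

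**Figure D1:**
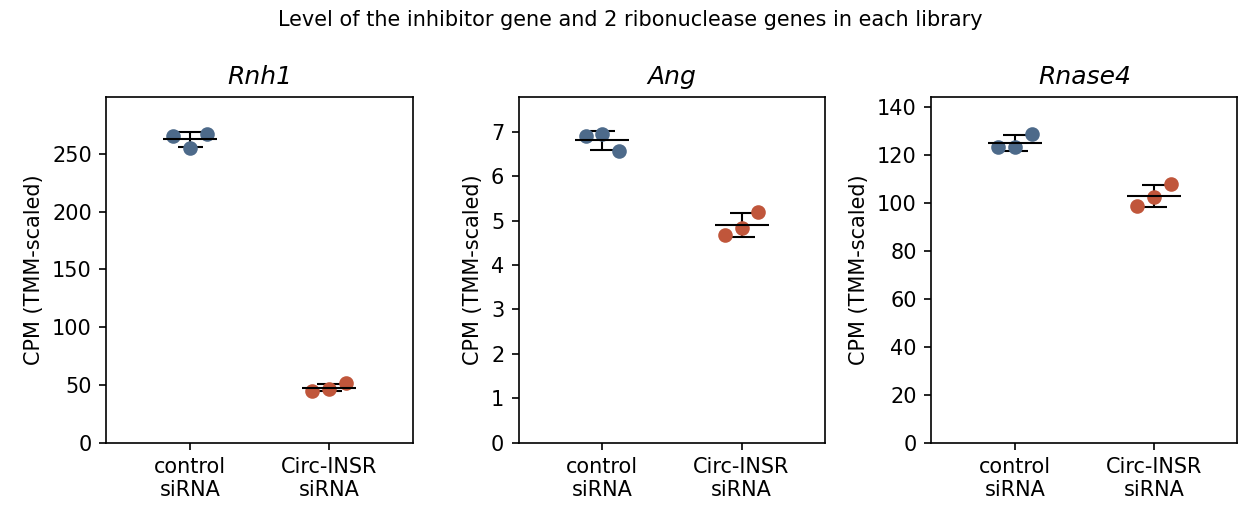
CPM (TMM-scaled, linear axes from 0) of Rnh1, Ang and Rnase4 in each library, with points for libraries and bars for the mean and SD (n = 3 each). Rnh1 sits between 254.9 and 267.7 CPM in control and between 45.1 and 51.3 CPM after Circ-INSR siRNA, while the groups of Ang and Rnase4 lie closer together.

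Ang, the gene of angiogenin, was much scarcer. It had 6.91, 6.96 and 6.56 CPM in control and 4.67, 4.83 and 5.19 CPM in Circ-INSR siRNA libraries, from 314 to 439 raw counts. The groups did not overlap, and the means of 6.81 ± 0.216 and 4.90 ± 0.268 CPM (SD, n = 3 each) correspond to a log2 fold change of -0.48 (SE 0.08). Rnase4 had 123.3, 123.1 and 128.9 CPM in control and 98.8, 102.3 and 107.9 CPM in Circ-INSR siRNA libraries. Its groups did not overlap either, with means of 125.1 ± 3.25 and 103.0 ± 4.59 CPM and a log2 fold change of -0.28 (SE 0.05). All 3 genes were therefore lower in every Circ-INSR siRNA library than in any control library, a pattern that 31.3% of all genes tested showed. Since the genes were chosen by this contrast, that share is given for scale only. Of all genes tested 0.354% had a lower log2 fold change than Rnh1, 17.8% a lower one than Ang and 27.8% a lower one than Rnase4. The ribonuclease genes thus lay on the lower side of the main peak of the distribution and Rnh1 near its edge. In raw counts, before scaling for library size, Rnase4 had 7463 to 8093 per control library and 6648 to 7771 per Circ-INSR siRNA library, and these ranges overlapped.

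**Figure D2:**
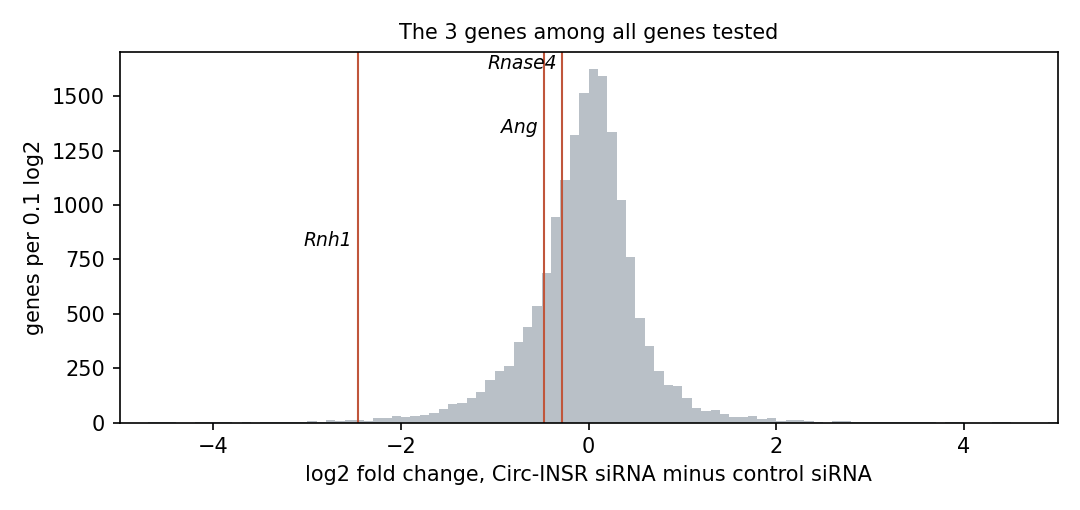
Histogram of log2 fold changes (Circ-INSR siRNA minus control) of all 16666 genes tested in bins of 0.1 (values past the axis stand in its last bin), with vertical lines at the 3 genes. Rnh1 at -2.46 lies in the thin left tail, and Ang at -0.48 and Rnase4 at -0.28 lie on the left shoulder of the main peak.

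The inhibitor protein binds its ribonucleases in equal numbers, which is why the mRNA levels were also set against each other per kilobase of exon within each library. Per kilobase Ang held 5.66 ± 0.180 CPM in control and 4.07 ± 0.223 CPM after Circ-INSR siRNA, and Rnase4 held 76.4 ± 1.99 and 62.9 ± 2.80 CPM (SD, n = 3 each). Rnase4 was thus the main ribonuclease mRNA of its family in these cells. The ratio of Rnh1 to the sum of Ang and Rnase4 was 1.26, 1.21 and 1.23 in control and 0.271, 0.270 and 0.282 in Circ-INSR siRNA libraries. By this measure inhibitor mRNA was above that of its ligand genes together in control, and after Circ-INSR siRNA it was below in every library. The exonic lengths pool all annotated transcripts, with 2594 bases for Rnh1 against 1656 in its transcript of 10 exons. How far the ratio lies from 1 therefore depends on which transcripts were made, which was not measured. With the same counts divided by the unshared exonic length of Ang and Rnase4, which is the right length only if reads on shared bases were dropped, the ratio was 1.06 ± 0.0214 in control and 0.236 ± 0.00566 after Circ-INSR siRNA. These are mRNA levels, and protein was not measured. The ratio of Rnase4 to Ang per kilobase was 13.1, 13.0 and 14.4 in control and 15.5, 15.5 and 15.3 in Circ-INSR siRNA libraries. The groups lay just apart in this ratio, and control replicate 3 was the nearest of the controls to the other group.

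**Figure D3:**
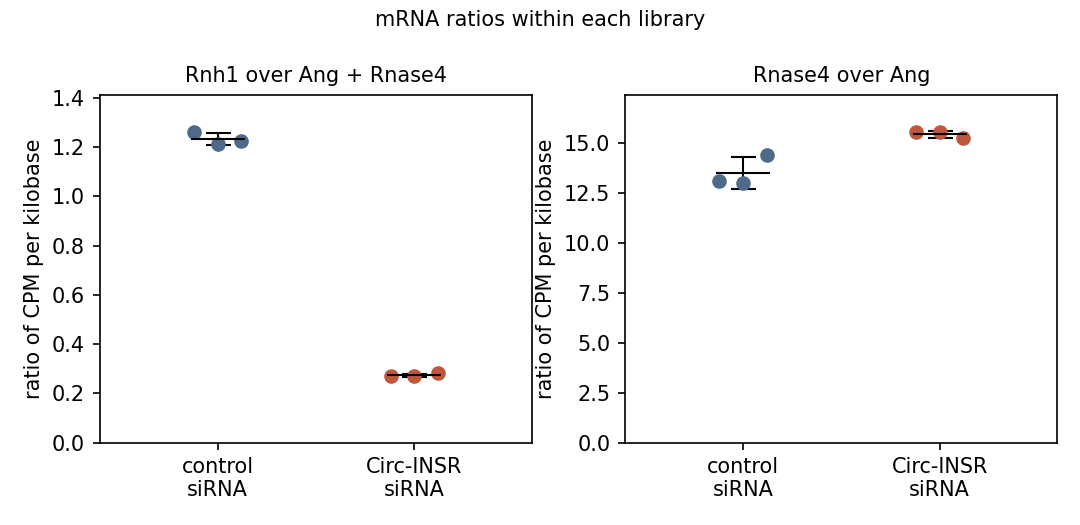
Ratios of CPM per kilobase within each library (linear axes from 0), left for Rnh1 over the sum of Ang and Rnase4 and right for Rnase4 over Ang, with points for libraries and bars for mean and SD (n = 3 each). The left ratio is 1.23 ± 0.0248 in control and 0.274 ± 0.00657 after Circ-INSR siRNA, while the right ratio is 13.5 ± 0.793 and 15.5 ± 0.163.

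Within the groups the 3 genes varied little, with a spread (SD) of log2 CPM of 0.0734 for Rnh1, 0.0639 for Ang and 0.0524 for Rnase4. In the Circ-INSR siRNA group all 3 were lowest in replicate 1 and highest in replicate 3. In the control group Rnh1 and Rnase4 were highest in replicate 3, where Ang was lowest.

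Besides Ang and Rnase4, 18 of 20 further genes of the ribonuclease A family were matched in the files, and they were almost silent. Of these, 9 had 0 counts in every library, which allows up to 3 counts, or 0.039 to 0.05 CPM per library, if each count was a separate fragment. If both mates of a fragment were counted, the limit is higher. The genes at 0 were Ang4, Ang5, Ang6, Ear1, Ear10, Ear14, Rnase9, Rnase11 and Rnase12. Another 8 had 1 to 12 counts over all libraries and did not pass the filter, among them Rnase1, the pancreatic ribonuclease gene, with 0 counts in control and 5 after Circ-INSR siRNA. Of the Ear genes, which encode eosinophil-associated ribonucleases, Ear1, Ear2 and Ear10 had 39.9% to 57.4% of their words of 50 bases in other genes, so the counts of these 3 are uncertain. Rnase10, a member without known catalytic activity, was the only one tested. It had 4, 10 and 4 counts in control and 8, 32 and 34 in Circ-INSR siRNA libraries, a log2 fold change of 1.80 (SE 0.57; edgeR adjusted p = 0.0171). The groups overlapped, the adjusted p was 0.0565 without control replicate 1, and the gene fell below the filter without Circ-INSR siRNA replicate 2 or 3 and with halved counts.

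Of all 16666 genes tested, 28.5% rose and 28.5% fell by edgeR's quasi-likelihood test at a Benjamini-Hochberg adjusted p under 0.05, with a median log2 fold change of -0.005. These shares are the background for the counts of the related gene lists that follow. The lists hold partners of angiogenin, other nucleases, processes in which angiogenin acts and inhibitors of other enzymes.

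Of 5 genes of receptors and binding proteins described for angiogenin, 3 fell and 2 were not called, with a median log2 fold change of -0.36. Plxnb2, which encodes plexin B2, a surface receptor of angiogenin, had 252.4 ± 36.1 CPM in control and 196.2 ± 6.34 CPM after Circ-INSR siRNA, a log2 fold change of -0.36 (SE 0.09; edgeR adjusted p = 0.00713). Sdc4, which encodes the cell surface proteoglycan syndecan-4, fell from 219.1 ± 6.72 to 107.4 ± 3.01 CPM (edgeR adjusted p = 8.3e-09). Actn2, the gene of the Z-disc crosslinker alpha-actinin-2, fell from 164.1 ± 6.62 to 104.9 ± 2.22 CPM (edgeR adjusted p = 2.9e-07). Egfr and Fst, named after their values were seen, were near the detection limit, at 0.148 ± 0.127 and 0.149 ± 0.0950 CPM in control. Without control replicate 3 or without Circ-INSR siRNA replicate 2, Fst passed as higher (edgeR adjusted p = 0.0138 and 0.0318).

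Angiogenin cuts tRNA, and methylated tRNA resists it. Of 10 genes of tRNA methylation, tRNA ligation and RNA end repair, 5 rose and 3 fell, with a median of 0.14. Trdmt1, a tRNA cytosine methyltransferase, rose from 8.28 ± 0.235 to 12.6 ± 0.570 CPM (log2 fold change 0.60, SE 0.07; edgeR adjusted p = 1.48e-05). Nsun2, another such methyltransferase, rose from 101.2 ± 0.767 to 117.3 ± 1.36 CPM (edgeR adjusted p = 0.000733). Clp1, an RNA kinase of tRNA splicing, rose from 8.66 ± 0.816 to 12.2 ± 0.416 CPM (edgeR adjusted p = 0.000231).

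Of 19 genes tested of RNase P, RNase MRP and the enzymes that trim tRNA ends or remove tRNA introns, 7 rose and 3 fell, with a median of 0.06. Most of these changes were small, and 1 was large. Tsen34, a catalytic subunit of the tRNA splicing endonuclease, rose from 20.7 ± 2.43 to 99.3 ± 3.25 CPM (log2 fold change 2.26, SE 0.07; edgeR adjusted p = 1.94e-09). Tsen15 and Tsen54, which encode structural subunits of that enzyme, were not called, with log2 fold changes of 0.00 (SE 0.07) and -0.06 (SE 0.06), and were named after their values were seen. Rpp40 of RNase P rose from 8.21 ± 0.125 to 12.6 ± 0.578 CPM and Pop4 from 36.1 ± 1.58 to 45.2 ± 2.13 CPM (edgeR adjusted p = 1.17e-05 and 0.00029). With total counts as the only scaling 5 genes of this list fell.

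Of 21 tested endoribonuclease genes outside the ribonuclease A family, 6 rose and 3 fell, with a median of 0.04. Rnasek, which encodes ribonuclease kappa, a membrane protein, fell from 34.7 ± 1.47 to 15.9 ± 1.597 CPM (log2 fold change -1.12, SE 0.07; edgeR adjusted p = 1.45e-07). Dicer1 and Drosha, the ribonucleases of microRNA processing, rose from 79.98 ± 8.04 to 138.8 ± 2.19 CPM and from 149.2 ± 10.2 to 198.7 ± 2.51 CPM (edgeR adjusted p = 9.31e-07 and 3.42e-05). Without control replicate 1, control replicate 2, Circ-INSR siRNA replicate 2 or Circ-INSR siRNA replicate 3, only 1 gene of the list fell, since the calls of Ern1 and Zc3h12d ended.

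Of 24 tested genes of the RNA exosome and other exoribonucleases, 13 rose and 3 fell, with a median of 0.16. Isg20l2, a nucleolar exonuclease of rRNA processing, rose from 26.6 ± 1.35 to 54.4 ± 0.230 CPM (log2 fold change 1.03, SE 0.05; edgeR adjusted p = 1.81e-08). Dis3, a catalytic subunit of the exosome, rose from 73.5 ± 1.36 to 97.98 ± 1.34 CPM, and Rexo4 fell from 27.1 ± 1.36 to 16.7 ± 0.963 CPM (edgeR adjusted p = 5.12e-06 and 2.15e-06).

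**Figure D4:**
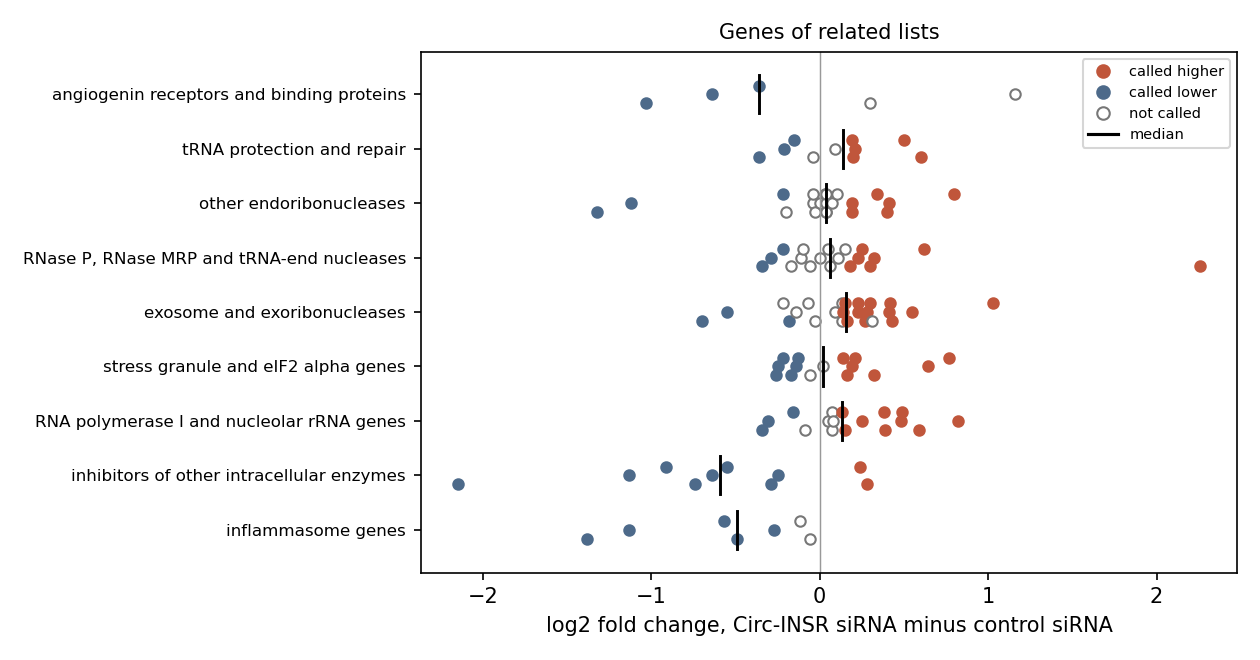
Log2 fold changes (Circ-INSR siRNA minus control) of every tested gene of 9 lists, with filled red points for genes called higher, filled blue points for genes called lower, open points for genes not called and black bars for list medians. Tsen34 at 2.26 is the rightmost point, and the medians of the inhibitor, inflammasome and angiogenin partner lists lie at -0.59, -0.49 and -0.36.

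Fragments of tRNA made by angiogenin are known to slow translation and to act with stress granules. Of 15 stress granule and eIF2 alpha genes 7 rose and 6 fell, with a median of 0.02. G3bp1, a nucleator of stress granules, rose from 414.9 ± 2.58 to 646.3 ± 6.84 CPM, and Usp10, which binds G3BP proteins, from 156.1 ± 8.64 to 266.8 ± 3.51 CPM (edgeR adjusted p = 5.65e-08 and 1.11e-07). Ybx1, an RNA-binding protein gene, fell from 1182 ± 29.8 to 986.5 ± 18.96 CPM (edgeR adjusted p = 8.29e-05). Without control replicate 2, Circ-INSR siRNA replicate 1 or Circ-INSR siRNA replicate 2 the number that fell was 3. Nuclear angiogenin promotes rRNA synthesis, and of 17 tested genes of RNA polymerase I and nucleolar rRNA processing 9 rose and 3 fell, with a median of 0.13. Npm1 rose from 569.0 ± 49.9 to 1003 ± 10.6 CPM, Ncl from 1221 ± 18.01 to 1604 ± 9.84 CPM and Fbl from 128.8 ± 3.47 to 179.2 ± 5.31 CPM (edgeR adjusted p = 2.29e-07, 1.37e-06 and 2.62e-06). These genes encode the abundant nucleolar proteins nucleophosmin, nucleolin and fibrillarin.

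Other protein inhibitors of intracellular enzymes were set beside Rnh1 as a comparison. Of 10 such genes 8 fell and 2 rose, with a median of -0.59. Serpinb1a, an inhibitor of neutrophil-type serine proteases, had 14.1 ± 0.493 CPM in control and 3.17 ± 0.143 CPM after Circ-INSR siRNA, a log2 fold change of -2.15 (SE 0.08; edgeR adjusted p = 3.15e-09). Cast, which encodes the calpain inhibitor calpastatin, fell from 145.1 ± 4.4 to 66.4 ± 1.67 CPM, and Pkia, a peptide inhibitor of protein kinase A, from 130.9 ± 9.003 to 69.7 ± 2.61 CPM (edgeR adjusted p = 4.95e-09 and 1.07e-07). The 2 that rose were Abce1, whose protein was first described as the inhibitor of RNase L, at 189.6 ± 7.86 and 230.7 ± 2.54 CPM, and Serpinb9 (edgeR adjusted p = 0.000175 and 0.0104). They were named after their values were seen.

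Ribonuclease inhibitor has been described as a limiter of inflammasome activation. Of 12 inflammasome genes 7 could be tested, 5 of them fell and 2 were not called, with a median of -0.49 over those tested. Among the 5 was Il18, near the detection limit at 0.398 ± 0.0837 CPM in control and 0.180 ± 0.0589 CPM after Circ-INSR siRNA. Its call ended in DESeq2 (adjusted p = 0.055) and without control replicate 1 or Circ-INSR siRNA replicate 1. Il18 was named after its values were seen. Casp4, the gene of the caspase that senses cytosolic lipopolysaccharide, fell from 9.59 ± 0.630 to 3.68 ± 0.371 CPM (log2 fold change -1.38, SE 0.10; edgeR adjusted p = 2.84e-07). Pycard, the adaptor ASC, fell from 75.4 ± 2.67 to 50.95 ± 2.29 CPM and Gsdmd, the pore-forming gasdermin D, from 36.4 ± 1.48 to 25.95 ± 0.621 CPM (edgeR adjusted p = 1.65e-06 and 7.21e-06). Nlrp3 had 22 counts in control and 28 after Circ-INSR siRNA in all and Il1b had 4 in each group, too few for a test. Of the leukocyte and macrophage markers Cd68 and Csf1r fell, from 5.19 ± 0.305 to 3.27 ± 0.185 CPM and from 1.65 ± 0.209 to 0.653 ± 0.0647 CPM (edgeR adjusted p = 0.00011 and 5.57e-05), and the other 4 had too few counts for a test. The part of this in the list was not tested.

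The annotation places 16 other genes within 100 kb of Rnh1, of which 15 were in the files and 10 could be tested. Of the 10, 7 fell and 3 were not called, with a median of -0.52. Under the alternatives 5 to 8 neighbours were called lower. The calls of Rassf7 and Sigirr ended in several fits with single libraries left out, and DESeq2 did not call Rassf7 (adjusted p = 0.104). The nearest tested gene was Ptdss2, a phosphatidylserine synthase gene that ends 2720 bases beyond the 3′ end of Rnh1 (141122382 to 141157606, plus strand). It had 39.5 ± 0.795 CPM in control and 37.2 ± 0.511 CPM after Circ-INSR siRNA, a log2 fold change of -0.09 (SE 0.04; edgeR adjusted p = 0.12, and 0.0271 with total counts as the only scaling). On the other side the nearest was Hras, a small GTPase gene 16248 bases away (141189105 to 141194005, minus strand), which fell from 137.4 ± 5.73 to 94.6 ± 4.16 CPM (log2 fold change -0.54, SE 0.05; edgeR adjusted p = 2.61e-06). Pkp3, a desmosomal plakophilin gene at 69816 bases, fell from 6.44 ± 0.559 to 1.74 ± 0.0893 CPM (log2 fold change -1.89, SE 0.11; edgeR adjusted p = 6.08e-08), and Lmntd2 at 37135 bases from 1.66 ± 0.253 to 0.653 ± 0.0647 CPM (edgeR adjusted p = 7.1e-05). Lmntd2 overlaps the end of Lrrc56 on the other strand, so its counts are less certain. No neighbour tested had a log2 fold change as low as that of Rnh1, and the closest on the chromosome was not called. Near Ang and Rnase4 the annotation lists 14 other genes, of which Rnase10, described above, was the only one tested. The rest of that cluster, apart from Ang and Rnase4, did not pass the filter in these cells or was not matched.

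**Figure D5:**
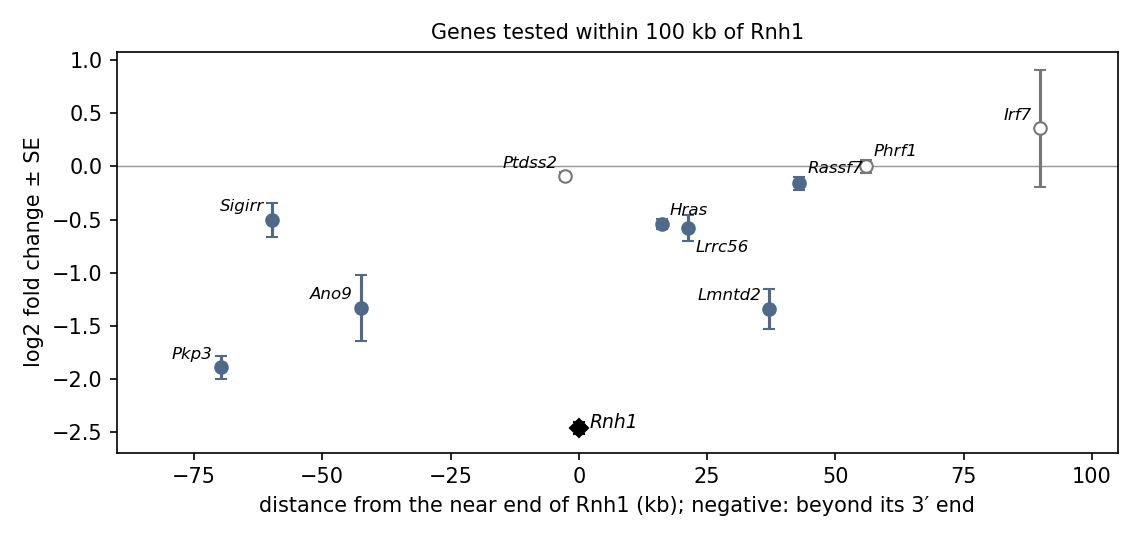
Log2 fold change ± SE (Circ-INSR siRNA minus control) of the 10 genes tested within 100 kb of Rnh1, against distance from its near end in kb, with the black diamond for Rnh1, filled points for genes called lower and open points for genes not called. Ptdss2, 2720 bases away, sits at -0.09 and Hras at -0.54, while Rnh1 is at -2.46.

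Among 11280 other protein-coding genes whose average log2 CPM was 1 or more, the 5 whose deviations of log2 CPM from the mean over the 6 libraries were nearest to those of Rnh1 were Shisal2b, Mapre3, Ccdc153, Pqlc3 and Stc1. Their root mean square distances from Rnh1 were 0.0844, 0.111, 0.112, 0.118 and 0.138 on the log2 scale. Mapre3, which encodes a microtubule end-binding protein, had 50.9, 49.2 and 49.5 CPM in control and 9.41, 10.8 and 9.86 CPM in Circ-INSR siRNA libraries. Pqlc3 had 37.4 ± 1.24 and 7.87 ± 0.242 CPM, and Stc1, the gene of the secreted hormone stanniocalcin-1, had 13.7 ± 1.27 and 2.80 ± 0.153 CPM. Shisal2b and Ccdc153 had 6.18 ± 0.153 and 23.5 ± 1.76 CPM in control and 1.11 ± 0.102 and 3.86 ± 0.295 CPM after Circ-INSR siRNA (SD, n = 3 each). The likeness over these libraries is mostly that of the group difference, which these genes were matched on, and they are given as a description.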

How the data were processed

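The files hold raw counts per Ensembl gene, 1 library each, as deposited. Per the submitters' processing notes the build is mm10 and the tools include STAR 2.5.0c and featureCounts 1.6.4. Not given in the sources used here were the role of each tool, the annotation's release, whether strand was used and how reads shared by genes were treated. In every library more genes had 2 counts than 1, the pattern of both mates being counted, so fits were repeated with counts halved. GENCODE M21, on the same build, named 36308 of 38087 IDs (95.33%).

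Counts were analysed with edgeR 4.0.16 in R 4.3.3. The filter filterByExpr (minimum count 10, minimum total count 15) kept 16666 genes, which were scaled by TMM and compared by the robust quasi-likelihood F-test, with no covariate and with Benjamini-Hochberg adjustment over all genes tested. The SE was taken from the F statistic, as the absolute log2 fold change over its square root. The edgeR steps were run on simulated counts with known changes. Far fewer genes changed there than were called here, so that run does not test the scaling under so wide a change. The genes, lists and tests were chosen with earlier results of these data known. Named genes were, besides the 3 genes, up to 3 called genes per list, those of smallest adjusted p, the nearest tested neighbours, and the 5 genes most like Rnh1. Among the files' IDs 6 listed genes and 4 neighbours were not matched. Alternatives were other scalings and filters, DESeq2 1.42.0, a replicate block, halved counts and each library left out. Proteins were not shown. Floors cover counting error only.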

Additional observations from a re-analysis of the deposited data

How the results depend on the processing

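Under all 14 alternatives Rnh1, Ang and Rnase4 kept their direction. The log2 fold change of Rnh1 ranged from -2.52 to -2.42, that of Ang from -0.52 to -0.44 and that of Rnase4 from -0.33 to -0.25. Counts of all genes called stayed within 1.5 times of the main ones, from 4130 to 5150 higher and from 4148 to 5326 lower. With all counts divided by the unshared exonic length, which holds only if reads on shared bases were dropped, Ang held 6.93 and 4.98 CPM in control and Circ-INSR siRNA libraries, and Rnase4 88.2 and 72.6 CPM, per kilobase.

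Of 336 counts of list members under alternatives, 22 moved by more than 1.5 times. With 1 CPM in 3 libraries as the filter, and with halved counts, 0 other ribonuclease A genes and 0 neighbours of Ang were called higher, because Rnase10 was not tested. With no filter 1 other ribonuclease A gene was called lower and 1 angiogenin partner higher. With total counts as the only scaling 5 RNase P and tRNA-end genes were called lower. With single libraries left out, the ranges were 0 to 1 for other ribonuclease A genes, neighbours of Ang and angiogenin partners called higher, 1 to 3 for endoribonucleases lower, and 3 to 6 for stress granule genes lower. Without control replicate 3, which stood apart, no list count but that of angiogenin partners called higher (1) moved by over 1.5 times.

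Same-numbered libraries of the groups deviated together only weakly, with correlations of 0.0242, 0.0739 and 0.0356, so the numbers were not taken as pairs, although every library correlated best with its own number. With the replicate block 4968 genes were called higher and 4900 lower, and the log2 fold change of Rnh1 was -2.46. Depth limits Ang, with 314 to 439 counts per library, and the silent members of its family.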

Other observations

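Irf7, an interferon response gene within 100 kb of Rnh1, had 22.1, 39.1 and 28.0 CPM in control and 43.1, 55.7 and 15.7 CPM in Circ-INSR siRNA libraries. Eif2ak2, which encodes the double-stranded RNA sensor PKR, was likewise lowest in Circ-INSR siRNA replicate 3, at 76.0 CPM against 95.8 and 106.4 CPM in the other Circ-INSR siRNA libraries. The levels of Rnh1 in these libraries, 45.1, 46.5 and 51.3 CPM, lay closer together. These genes were chosen after their values were seen, and neither passed the edgeR test between the groups (adjusted p = 0.623 for Irf7 and 0.717 for Eif2ak2).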
